A study of Mus musculus with 22 samples.

Results

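The BMP ligands and antagonists described here were 10 genes chosen by name from the 26202 gene symbols of the count table: the ligand genes Bmp2, Bmp3, Bmp4, Bmp5, Bmp7 and Gdf5, the secreted antagonist genes Nog, Grem1 and Chrdl1, and Bambi, which encodes a pseudoreceptor. All 10 were found in the table, and their expression was compared over 18 libraries of mouse embryonic trachea. At E11.5, whole tracheas of Wnt5a f/f controls (5 libraries) were compared with Dermo1Cre; Wnt5a f/f mutants (4 libraries), in which Cre is driven in the mesenchyme, so that both groups carried the floxed Wnt5a alleles and the epithelium of the mutants kept its own. At E13.5, tracheas carrying the smooth muscle reporter γSMAeGFP were dissociated and sorted into epithelium (EpCAM positive, 2 libraries), muscle (GFP positive, 2 libraries) and cells negative for both, called chondroblasts (2 control libraries). A further 3 libraries held chondroblasts of Notum 150/150; γSMAeGFP mutants. The labels give the sorted control samples as Bmp4 f/f; γSMAeGFP or as Notum 300/300; γSMAeGFP, with no Cre named, and the columns of the table cannot be tied to either genotype, so the Bmp4 locus of a given control library is not known. Each library came from 5 pooled tracheas.

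BMPs are secreted dimers that bind type I and type II serine/threonine kinase receptors, which phosphorylate Smad1, Smad5 and Smad9. These Smads enter the nucleus with Smad4 and activate response genes such as the Id and Msx families. Antagonists such as Noggin and Gremlin bind the ligands outside the cell, while Bambi resembles a type I receptor without the kinase. In the trachea, mesenchymal Bmp4 is needed for respiratory tissue to form, and BMP activity takes part in the making of cartilage rings. Whole tracheas and sorted fractions are bulk samples, in which fewer cells of a type and less RNA per cell cannot be told apart.

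Total counts ran from 6880660 to 21678177 per library, and 3 counts, taken as the detection floor, corresponded to 0.138 to 0.436 CPM (counts scaled to a common library total, here before TMM scaling, with counting error only). Levels below are CPM after TMM scaling, and libraries are lettered within a group. The sort labels were borne out by markers: the summed level of 8 epithelial markers was 3654 to 4449 CPM in epithelium and at most 45.4 in the other sorted groups, and 8 smooth muscle markers summed to 10940 to 14230 CPM in muscle and at most 170.1 in the other sorted groups. The 8 chondroblast markers were less selective, at 2389 to 2560 CPM in control chondroblasts and 869 to 1810 in muscle. Library A of control chondroblasts, muscle and epithelium carried an earlier date in its column name than library B, and all 3 Notum mutant libraries carried the later date. The targeted genes did not separate the mutants from their controls: Wnt5a was at 62.1 to 159.1 CPM in E11.5 controls and 46.3 to 126.2 in mutants, and Notum at 13.7 and 86.0 CPM in control chondroblasts and 13.7 to 35.3 in mutants, so these transcript levels do not check the mutant labels.

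Promoter sequence was at hand for 3 of the 10 genes, and those of Bmp4 and Bmp5 are shown because 1 of these ligand genes passed the rule of the study for p and fold (given with that comparison) in Notum mutants and the other did not. Each is the 250 bases upstream of the RefSeq start in GRCm38.p6, 5′ to 3′ on the strand of the gene, at chr14:46390670-46390919 (minus strand) for Bmp4 and chr9:75775115-75775364 (plus strand) for Bmp5. Capitals mark the GC box GGGCGG, searched on both strands together with the TCF/LEF core CTTTG and the palindrome GGCGCC, a GC-rich core of BMP response elements. These motifs were chosen after the sequences had been seen.
Bmp4: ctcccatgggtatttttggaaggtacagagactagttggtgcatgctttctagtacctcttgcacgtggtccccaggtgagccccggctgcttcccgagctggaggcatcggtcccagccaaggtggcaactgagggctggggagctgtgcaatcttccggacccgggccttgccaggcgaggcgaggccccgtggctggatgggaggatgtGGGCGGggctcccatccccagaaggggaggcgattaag
Bmp5: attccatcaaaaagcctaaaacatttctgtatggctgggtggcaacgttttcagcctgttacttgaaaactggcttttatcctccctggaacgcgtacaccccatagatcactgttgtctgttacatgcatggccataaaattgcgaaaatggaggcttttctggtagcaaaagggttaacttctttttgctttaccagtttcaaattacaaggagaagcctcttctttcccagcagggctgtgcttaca
The Bmp4 window had a GC content of 63.2% and held 1 GC box and no match to the other motifs, and the Bmp5 window had a GC content of 42.8% and held none of the 3. Of 32851 promoter windows of the same length, 32.74% held the GC box, 48.58% the TCF/LEF core and 9.59% the palindrome. Bmp4 lies at chr14:46383520-46390669 and Bmp5 at chr9:75775364-75900310 (GRCm38). Exons of Bmp4, Bmp5 and Gdf5 overlap exons of the predicted genes Gm15217, Gm26903 and Gm15557, and the counting was not stated to use strand, so reads there cannot be assigned with certainty.

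To compare genes with each other, levels were divided by the union of their exons. Per kilobase, Gdf5 was the highest member in control chondroblasts, at a mean of 52.8 CPM per kb, followed by Bmp4 at 23.5 and Bambi at 18.6. In muscle the highest was Gdf5 at 32.2 CPM per kb, with Chrdl1 at 29.4, whose ranges of 29.0 to 35.3 and 25.7 to 33.1 overlapped. In epithelium no member had a mean above 9.79 CPM per kb, the value of Chrdl1. In E11.5 control tracheas Bambi at 37.0 and Bmp4 at 23.6 CPM per kb stood above the others, of which the next was Bmp7 at 5.21. Grem1 was at or under 1.15 CPM per kb in every group.

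**Figure D1:**
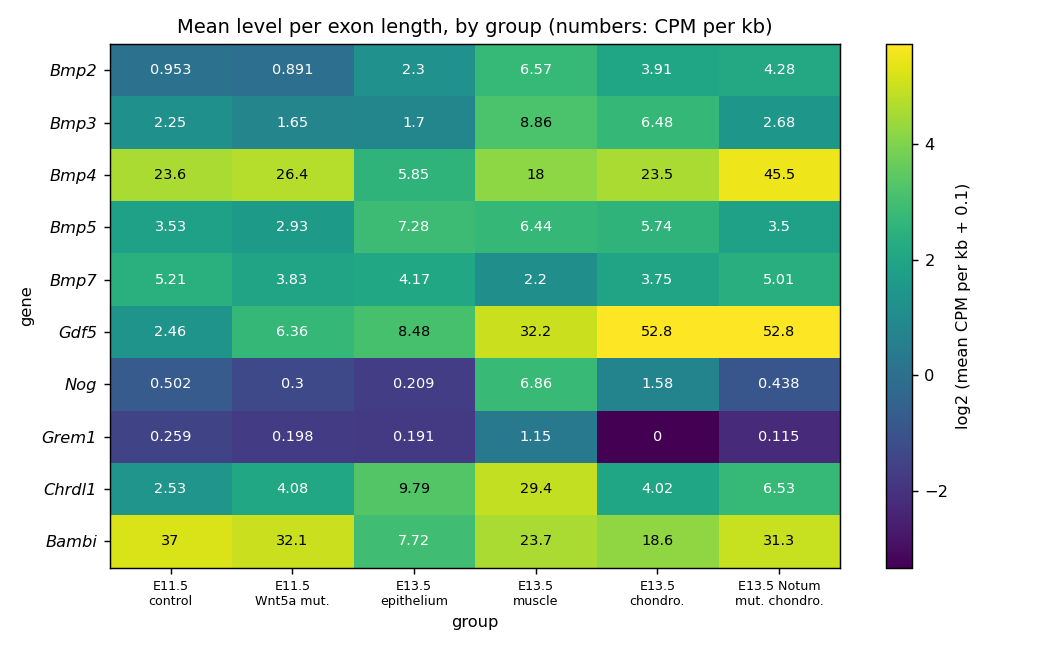
Mean level of the 10 genes (rows) in the 6 groups (columns), as CPM per kilobase of exon, with the color on a log2 scale after adding 0.1. Gdf5 reached 52.8 in control chondroblasts against 2.46 in E11.5 control tracheas, and Grem1 was at 0 in control chondroblasts.

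The ligands differed in where they were high among the sorted E13.5 populations. Gdf5, a ligand of joint and cartilage development, was at 108.5 and 136.5 CPM in control chondroblasts, 67.4 and 81.8 in muscle, and 20.8 and 18.5 in epithelium. The 3 populations did not overlap. Gdf5 was lower in epithelium than in chondroblasts by a log2 fold change of -2.62 ± 0.29 (SE, adjusted p = 0.0122, edgeR) and than in muscle by -1.91 ± 0.29 (adjusted p = 0.0218), while the step from muscle to chondroblasts, 0.71 ± 0.28, did not pass (adjusted p = 0.845). Against muscle and chondroblasts together the log2 fold change in epithelium was -2.27 ± 0.27 (adjusted p = 0.00855), and this call held with each of the 6 libraries left out in turn. The call against chondroblasts was lost without control chondroblast library A (adjusted p = 0.0661) or B (adjusted p = 0.0970), and that against muscle was lost with 5 of the 6 libraries left out in turn, up to an adjusted p of 0.115.

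Bmp3, an atypical ligand that opposes other BMPs, was at 76.3 and 54.8 CPM in muscle, 32.9 and 63.0 in control chondroblasts, and 5.75 and 19.4 in epithelium. All epithelial values were below all mesenchymal ones, with a log2 fold change of -2.15 ± 0.62, which did not pass the adjustment (unadjusted p = 0.0123, adjusted p = 0.120, edgeR). Bmp4 was at 20.1 and 4.04 CPM in epithelium against 56.3 and 40.7 in control chondroblasts and 19.8 and 54.6 in muscle. Muscle library A was below epithelium library A, and the log2 fold change of -1.79 ± 0.80 did not pass (adjusted p = 0.273).

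Bmp2 and Bmp7 varied widely between libraries of the same population. Bmp2 was at 14.4 and 32.3 CPM in muscle, 10.3 and 17.6 in control chondroblasts, and 5.70 and 10.7 in epithelium. Bmp7 was at 8.34 and 22.3 CPM in epithelium, 8.50 and 19.1 in control chondroblasts, and 2.14 and 14.0 in muscle. In all 3 populations the library of the earlier date held the lower value of both genes. Bmp5 was at 26.5 and 29.2 CPM in epithelium, the population with the highest mean, against 33.6 and 10.2 in control chondroblasts and 32.6 and 16.6 in muscle, and here the library of the earlier date was the higher one in both mesenchymal populations. None of the 3 genes passed the test in any comparison of populations, with adjusted p between 0.383 for Bmp2 in epithelium against muscle and 1 in chondroblasts against muscle.

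**Figure D2:**
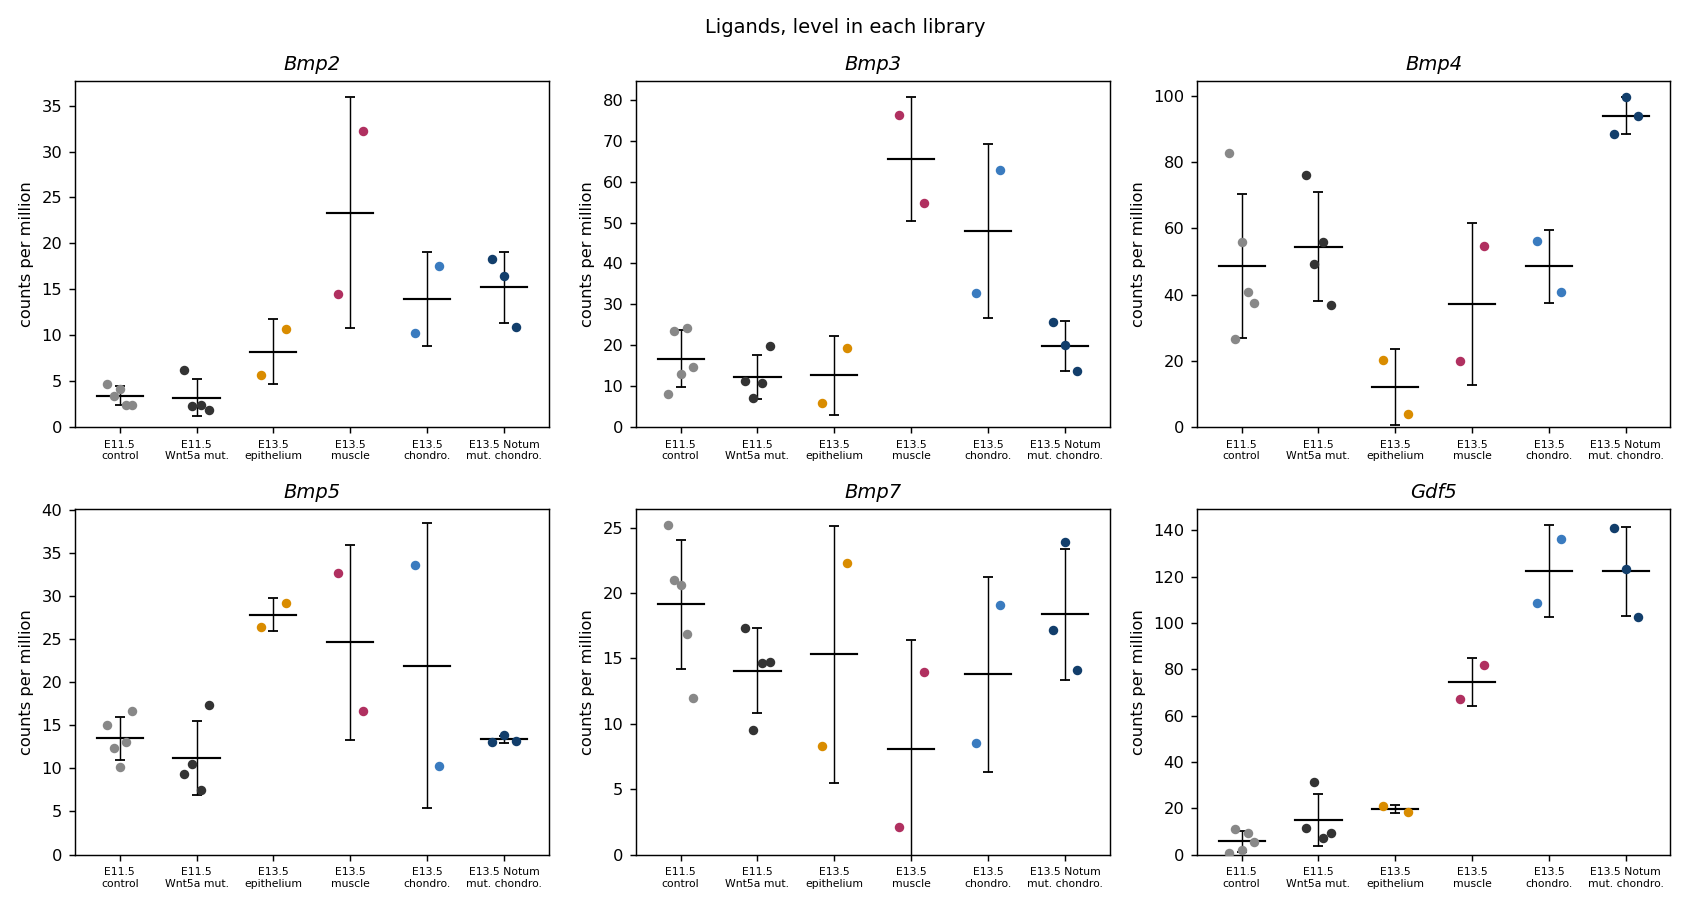
Level of each ligand gene in every library (points, TMM-scaled CPM), with the mean (line) and SD (bars, cut at 0) per group. Gdf5 was lower in both epithelium libraries than in every muscle and chondroblast library. Bmp4 in the 3 Notum mutant libraries lay between 88.4 and 99.6 CPM, above both control chondroblast libraries.

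Chrdl1, which encodes a secreted antagonist related to chordin, was highest in muscle. It was at 223.3 and 173.2 CPM there, 80.0 and 52.3 in epithelium, and 27.8 and 26.6 in control chondroblasts. The 3 populations did not overlap. The level in control chondroblasts was lower than in muscle by a log2 fold change of -2.88 ± 0.31 (adjusted p = 0.0496), the level in epithelium was lower than in muscle by -1.57 ± 0.30 (adjusted p = 0.0448), and epithelium against chondroblasts, at 1.30 ± 0.30, did not pass (adjusted p = 0.0904, edgeR). The call between chondroblasts and muscle was lost on leaving out any chondroblast or muscle library, with an adjusted p of 0.190 to 0.463, and that between epithelium and muscle with 5 of the 6 libraries left out in turn, up to 0.218.

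Bambi was at 42.1 and 36.3 CPM in epithelium, 82.9 and 106.0 in control chondroblasts, and 96.3 and 144.5 in muscle. It was lower in epithelium than in muscle by a log2 fold change of -1.61 ± 0.31 (adjusted p = 0.0457) and than in the mesenchyme as a whole by -1.43 ± 0.28 (adjusted p = 0.0399, edgeR), and muscle and chondroblasts overlapped. The call against the mesenchyme was lost without each of the 6 libraries in turn, with an adjusted p of 0.0576 to 0.157, and so was the call against muscle, with an adjusted p of 0.0582 to 0.231.

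Nog was low and uneven. It was at 18.9 and 4.35 CPM in muscle, 0.86 and 4.48 in control chondroblasts, and 0.38 and 0.33 in epithelium, the last from 8 and 5 counts. Muscle library A, with the highest Nog, also held 452.9 CPM of Myog, a skeletal muscle regulator, against 33.4 in muscle library B, and its 5 skeletal muscle markers summed to 2436 CPM against 653. The part of these cells in the Nog level was not tested. Grem1 had 0 counts in both control chondroblast libraries, in muscle library A and in epithelium library B, 33 counts in epithelium library A and 151 counts (9.51 CPM) in muscle library B, so its level in muscle rested on 1 library. Epithelium library A also held 91.3 CPM of the macrophage gene Csf1r, which had 0 counts in library B. In libraries A and B, Csf1r was at 82.95 and 36.15 CPM in control chondroblasts and at 0.24 and 35.6 CPM in muscle. The part of macrophages in the level of Grem1 was not tested.

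**Figure D3:**
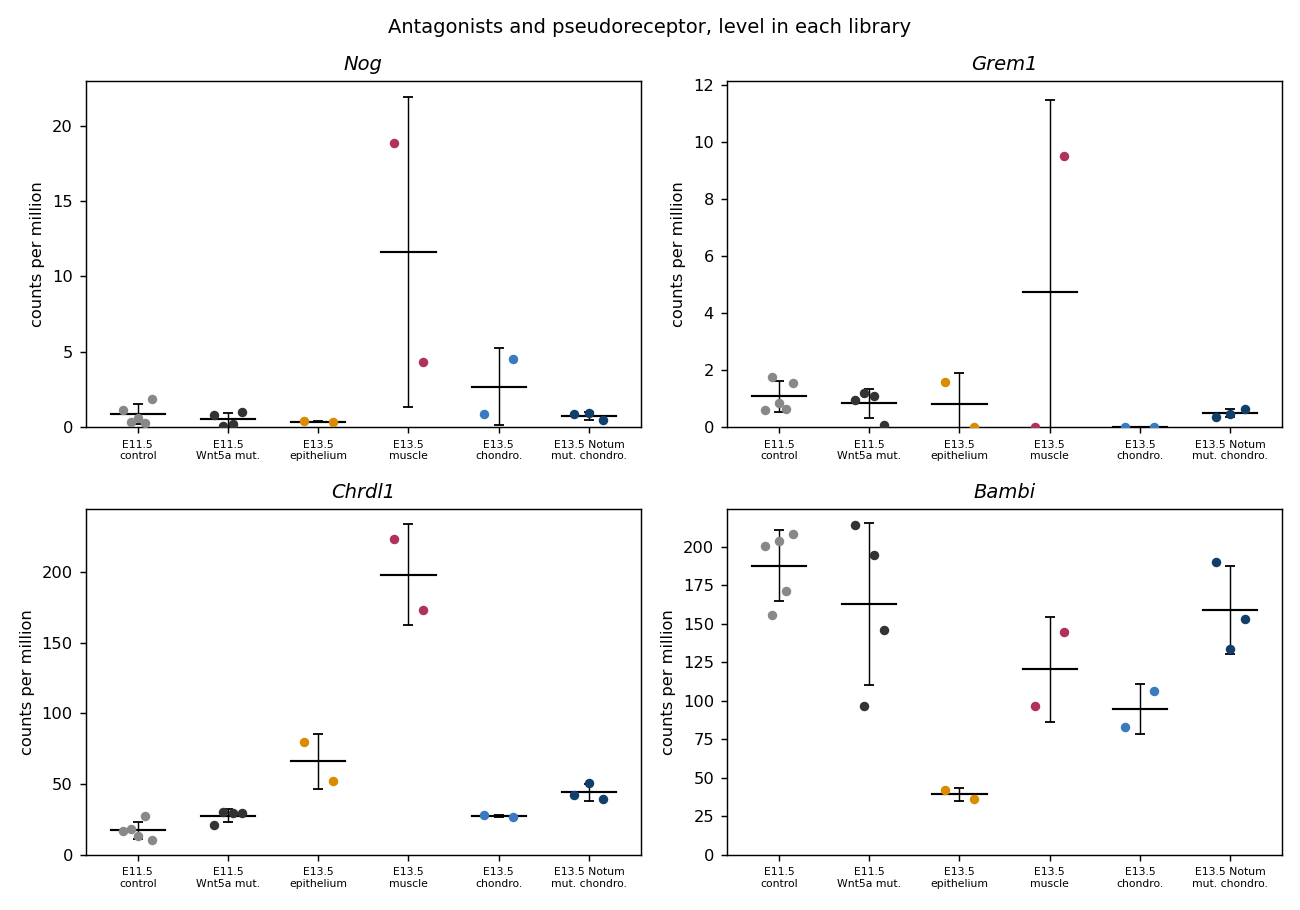
Level of Nog, Grem1, Chrdl1 and Bambi in every library (points, TMM-scaled CPM), with the mean (line) and SD (bars, cut at 0) per group. Chrdl1 stood at 173.2 and 223.3 CPM in muscle, above every other library.

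In all, 2 of the 9 members tested were called between epithelium and mesenchyme (Gdf5 and Bambi, both lower), against 5.14% of 13687 genes. The call here and below is an adjusted p under 0.05 by edgeR (quasi-likelihood), adjusted over all genes tested by the Benjamini-Hochberg method. The counts were 1 of 9 for epithelium against chondroblasts (2.74% of genes), 3 of 9 for epithelium against muscle (3.58%) and 1 of 9 for chondroblasts against muscle (0.132%). Grem1 did not reach the filter of 1 CPM. The median log2 fold change of the 9 members between epithelium and mesenchyme was -1.43, against -0.02 for all genes tested.

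Of the wider pathway, 43 of 51 listed genes were tested in these populations. Between epithelium and mesenchyme, 2 were called higher and 4 lower in epithelium, against 5.14% of 13687 genes called. The response genes Id1 and Id2, which encode inhibitors of basic helix-loop-helix factors, rose by log2 fold changes of 1.76 ± 0.18 (adjusted p = 0.00542) and 1.07 ± 0.16 (adjusted p = 0.0195). Id1 was at 257.8 and 233.7 CPM in epithelium against 52.1 to 108.7 in the mesenchymal libraries. The 4 lower genes were Gdf10, a divergent ligand, at -3.77 ± 0.42 (adjusted p = 0.00705), Bmp1, a protease that cleaves chordin, at -2.16 ± 0.26 (adjusted p = 0.00855), Fstl1, a secreted follistatin relative, at -0.75 ± 0.13 (adjusted p = 0.0284), and Neo1, a receptor of repulsive guidance molecules, at -1.27 ± 0.22 (adjusted p = 0.0297, edgeR). The same 6 genes except Fstl1 and Neo1 were called against chondroblasts alone, and all 6 against muscle alone. With a term for the date, which the populations share, Id1 (adjusted p = 0.0533) and Id2 (adjusted p = 0.0612) were no longer called against chondroblasts, nor Id2 (adjusted p = 0.0547) and Neo1 (adjusted p = 0.0682) against muscle. With each library left out in turn, Id1, Gdf10 and Bmp1 stayed called against the mesenchyme, while Fstl1 and Neo1 lost the call each time and Id2 in 3 of 6 cases. Against chondroblasts alone the call was lost in 6 of 6 cases for Id1 and Id2, in 4 for Bmp1 and in 2 for Gdf10. Against muscle alone it was lost in 6 of 6 cases for Id2 and Neo1, in 4 for Fstl1, in 2 for Bmp1 and in 1 for Id1. The 5 dissociation-induced genes Fos, Jun, Egr1, Atf3 and Hspa1a summed to 8113 and 11360 CPM in epithelium and 2709 to 6862 CPM in the mesenchymal libraries, and their part in these differences was not tested.

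The comparison of Notum mutant with control chondroblasts asks how loss of the Wnt deacylase Notum bears on these genes. Bmp4 was at 88.4, 99.6 and 94.0 CPM in the mutants against 56.3 and 40.7 in the controls, with a log2 fold change of 0.98 ± 0.18 (unadjusted p = 0.00119, adjusted p = 0.205, edgeR). The groups did not overlap, and the highest value in any library outside the mutants was 82.8 CPM, in an E11.5 control. A control chondroblast library may carry Bmp4 f/f alleles, and their part in the Bmp4 difference was not tested. Bambi was at 190.0, 133.6 and 153.2 CPM in the mutants against 82.9 and 106.0 (0.77 ± 0.20, adjusted p = 0.270). Chrdl1 was at 42.3, 51.0 and 39.1 CPM against 27.8 and 26.6 (0.72 ± 0.19, adjusted p = 0.270). Bmp3 was lower, at 25.7, 20.1 and 13.6 CPM against 32.9 and 63.0 (-1.25 ± 0.37, adjusted p = 0.307). These levels are sums over the entries of a symbol, 2 for Bmp3 and 3 for Chrdl1. Entry 1 of Bmp3 made up 7.6 to 17.2% of its counts in controls and 16.5 to 61.6% in mutants. Entry 2 of Chrdl1 made up 13.9 to 55.2% in controls and 26.8 to 38.9% in mutants. The entries were not tested apart.

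These 4 of the 8 members tested passed the cutoffs of the study for p and fold, an unadjusted p under 0.05 and a fold change over 1.5, here applied to edgeR after the filter of 1 CPM, which 8.41% of 14120 genes passed. The study itself used DESeq2 and a filter on FPKM, and with DESeq2 the same number of members passed these cutoffs, which are called the rule of the study here. Of the 4 members, none passed the adjustment, as was the case for all genes (0%, smallest adjusted p 0.0540). Mutant libraries B and C share a number in their column names whose meaning is not stated, so they may not be separate litters, and 4 members passed the rule of the study with either one left out and with both summed into 1 library. An unadjusted p under 0.05 was reached by 1762 genes. DESeq2 called 526 genes and 3 of the members, Bmp4 (adjusted p = 0.000329), Bambi (adjusted p = 0.0213) and Chrdl1 (adjusted p = 0.0449), and gave Bmp3 an adjusted p of 0.0584. The groups did not overlap for the same 4 members, against 33.9% of all genes tested.

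The date and the mutation are partly confounded in this comparison, since control library A alone carried the earlier date. Against control library B only, which shares the date of the mutants, the log2 fold change was 1.22 for Bmp4 (adjusted p = 0.00940) and -1.65 for Bmp3 (adjusted p = 0.0204), while Chrdl1 (0.74, adjusted p = 0.0594) and Bambi (0.60, adjusted p = 0.0903) kept their direction without passing. This fit assumes that the lone control varies like the mutants, and it called 2540 genes. Against control library A only, the values were 0.75 for Bmp4, 0.95 for Bambi, 0.68 for Chrdl1 and -0.72 for Bmp3, with no member called. Control library A held 34050 CPM of the globin gene Hba-a1, against 3630 to 5097 CPM in control library B and the mutants. All 3 mutants were above both controls in 5 of 8 chondroblast markers, 3 of 8 smooth muscle markers, 2 of 6 macrophage markers and 3 of 6 neural and glial markers. The same held for 1 of 8 epithelial and 1 of 5 skeletal muscle markers. They were below both controls in 2 of 8 epithelial, 2 of 7 red cell and 1 of 6 endothelial markers. This also held for 1 of 5 dissociation-induced and 1 of 3 oesophageal or basal-like markers. Of all genes tested, 33.9% did not overlap in either direction. The summed macrophage markers were 222.5 to 369.0 CPM in mutants and 144.5 and 195.9 in controls, and the part of these cells in the levels of the 4 genes was not tested.

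The remaining members overlapped between the groups or were too low to test. Gdf5 was at 141.2, 123.4 and 102.8 CPM in the mutants and 108.5 and 136.5 in the controls (log2 fold change 0.02 ± 0.18, adjusted p = 0.976, edgeR), so that its level differed by less than the spread between libraries. Bmp5 was at 13.1, 13.9 and 13.2 CPM in the mutants, between the 2 control values of 33.6 and 10.2. Bmp2 ran from 10.9 to 18.3 CPM and Bmp7 from 14.1 to 23.9 CPM in the mutants, and both ranges overlapped those of the controls. Nog was at 0.86, 0.92 and 0.44 CPM in the mutants and 0.86 and 4.48 in the controls. Grem1 was detected in all 3 mutants, from 8, 9 and 13 counts, and had 0 counts in both controls, which allows up to 0.138 and 0.222 CPM.

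**Figure D4:**
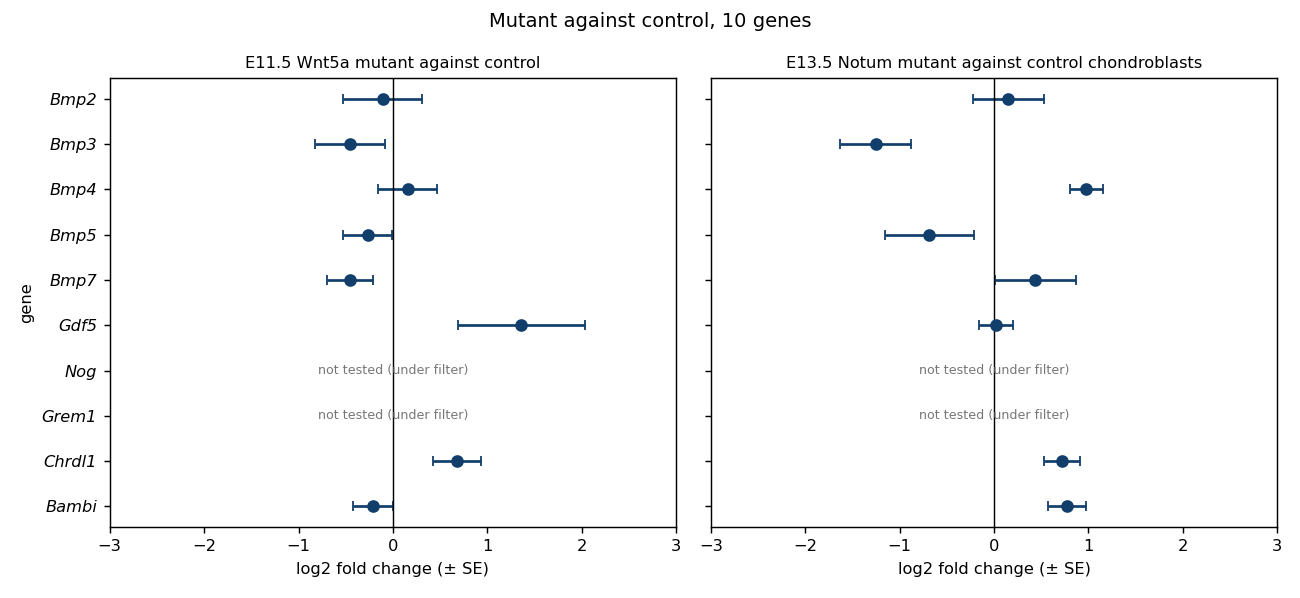
Log2 fold change (points) and SE (bars) of the members in the Wnt5a comparison at E11.5 (left) and the Notum comparison at E13.5 (right), with members under the filter marked as not tested. In the Notum comparison Bmp4 lay at 0.98 and Bmp3 at -1.25, and no member of either comparison passed the adjustment.

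Of the wider pathway list, 9 genes were higher and 3 lower in Notum mutant chondroblasts by the rule of the study, of 43 tested. That rule was passed by 8.41% of all 14120 genes tested, and 0 genes of the list passed the adjustment in edgeR. The response genes Msx1 and Msx2 encode homeobox factors. Msx2 was at 99.8, 89.9 and 98.7 CPM in the mutants against 25.5 and 21.8 (2.05 ± 0.15, adjusted p = 0.0540), and Msx1 at 19.0, 18.5 and 16.3 CPM against 3.79 and 4.41 (2.15 ± 0.31, adjusted p = 0.144). Id1, another response gene, was lower, at 46.7, 27.0 and 35.6 CPM against 108.7 and 86.7 (-1.40 ± 0.25, adjusted p = 0.205), as was the co-receptor gene Tgfbr3, at 22.17, 19.75 and 21.73 CPM against 39.5 and 47.2 (-1.01 ± 0.19, adjusted p = 0.222). DESeq2 called all 4, with adjusted p from 1.75e-27 for Msx2 to 0.00144 for Tgfbr3. The median log2 fold change was 0.20 over the list, 0.29 over the 8 members and 0.02 over all genes tested.

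At E11.5, loss of Wnt5a in the mesenchyme was compared with controls to see whether these genes move before the cartilage forms. Of the members tested, 1 of 8 passed the rule of the study (3.72% of 14663 genes) and 0 passed the adjustment (0.0136% of genes, 2 in all). DESeq2 called 40 genes and 0 members, and an unadjusted p under 0.05 was reached by 672 genes in edgeR.

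Chrdl1 was the member past the rule in edgeR, and with DESeq2 Gdf5 passed it as well (unadjusted p = 0.0347). Mutant libraries held 20.7, 30.5, 29.4 and 29.6 CPM and control libraries 16.7, 17.8, 13.2, 27.1 and 10.6, which gave a log2 fold change of 0.68 ± 0.25 (unadjusted p = 0.0213, adjusted p = 1.00, edgeR). The groups overlapped through control library D. Chrdl1 no longer passed the rule in 4 of the 9 fits with a library left out: without control library C (unadjusted p = 0.0521), mutant library B (0.0522) or mutant library D (0.0502), and without control library E, where the log2 fold change was 0.56. Gdf5 was at 11.3, 31.4, 6.95 and 9.40 CPM in the mutants and 0.90, 11.1, 1.79, 9.54 and 5.29 in the controls, which overlapped, with a log2 fold change of 1.36 ± 0.67 (unadjusted p = 0.0669).

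The column names of these libraries carry numbers that mutants and controls share. With them as a replicate block, 3 members passed the rule of the study rather than 1, and 413 of 14663 genes did so rather than 546. The members were Gdf5 at 1.67 ± 0.50 (unadjusted p = 0.00969, adjusted p = 0.785, edgeR), Bmp7 at -0.59 ± 0.20 (unadjusted p = 0.0191) and Chrdl1 at 0.59 ± 0.21 (unadjusted p = 0.0214). Control library E shares its number with no mutant and does not enter the blocked fold changes. Within the number pairs, Gdf5 was higher in the mutant for A, B and C (11.3 against 0.90, 31.4 against 11.1 and 6.95 against 1.79 CPM) and close to equal for D (9.40 against 9.54). Chrdl1 was higher in the mutant and Bmp7 lower in the mutant in all 4 pairs. Without mutant library B the unblocked log2 fold change of Gdf5 was 0.68.

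The other ligands overlapped between the groups at E11.5. Bmp4 was at 82.8, 26.5, 55.9, 40.7 and 37.5 CPM in controls and 76.0, 49.1, 56.0 and 36.9 in mutants (0.16 ± 0.31). Bmp7 was at 25.2, 20.98, 20.6, 16.9 and 12.0 CPM in controls and 17.3, 9.55, 14.7 and 14.7 in mutants (-0.45 ± 0.24, unadjusted p = 0.0902). Bmp2 ran from 2.33 to 4.71 CPM in controls and from 1.88 to 6.17 in mutants, Bmp3 from 8.12 to 24.1 and from 6.98 to 19.8, and Bmp5 from 10.2 to 16.7 and from 7.55 to 17.4. Bambi was at 155.3 to 208.0 CPM in controls and 96.3 to 214.2 in mutants, the highest member in both groups. Nog and Grem1 were at most 1.87 and 1.74 CPM in any E11.5 library and were not tested. The 5 skeletal muscle markers summed to 71.4 to 267.0 CPM in controls and 208.9 to 349.9 in mutants, with Myog at 7.16 to 20.2 and 60.3 to 84.9 CPM, and the part of these cells in the levels above was not tested. Control library A and mutant library A, which share a number, stood apart in 5 dissociation-induced genes, which summed to 2431 and 3138 CPM there and to 103.5 to 363.9 CPM in the other 7 E11.5 libraries. These 2 libraries also held the highest Bmp2 (4.71 and 6.17 CPM) and Bmp4 (82.8 and 76.0 CPM) of their groups. With both left out, an alternative chosen after seeing the data, the log2 fold change was -0.49 for Bmp2, 0.25 for Bmp4 and 0.79 for Chrdl1, which was again the 1 member past the rule, and 0 members were called.

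No gene of the wider pathway list passed either rule at E11.5 in edgeR, of 43 tested. With DESeq2 the antagonist gene Sostdc1 passed the rule of the study (log2 fold change 1.496, unadjusted p = 0.0392), at 19.2, 4.09, 21.67 and 0.57 CPM in mutants and 2.02 to 7.72 in controls, which overlapped. It was at 0.70 with the replicate block (unadjusted p = 0.357). Chrdl2, a relative of Chrdl1, was under the filter. It is named after its values were seen. They were 1.05, 0.76, 1.30 and 0.85 CPM in mutants, from 14 to 24 counts, and 0 to 0.29 CPM in controls, from 0 to 5 counts. Only the mutants brought it past the filter of at least 10 counts in every library of a group. The fit with that filter is therefore no test of this gene.

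Between E11.5 control tracheas and E13.5 control chondroblasts, age, the sort and the preparation of the tissue cannot be told apart. The dissociation-induced genes summed to 171.3 to 2431 CPM in the former and to 2709 and 3556 CPM in the latter, and their part in the values below was not tested. Of the 8 members tested, 4 were called (12.5% of 14728 genes were called). Gdf5 was the largest of these changes, from 0.90 to 11.1 CPM at E11.5 to 108.5 and 136.5 CPM (log2 fold change 4.40 ± 0.74, adjusted p = 0.00793). Bmp2 was higher by 2.03 ± 0.40 (adjusted p = 0.0153), from 2.33 to 4.71 CPM to 10.3 and 17.6 CPM, and Bmp3 by 1.51 ± 0.42 (adjusted p = 0.0499), from 8.12 to 24.1 CPM to 32.9 and 63.0 CPM. Bambi fell from 155.3 to 208.0 CPM to 82.9 and 106.0 CPM (-0.99 ± 0.18, adjusted p = 0.0119, edgeR). Bmp4 had a log2 fold change of 0.00 ± 0.39. Without control chondroblast library B, Bmp2 (1.59, adjusted p = 0.0955) and Bmp3 (0.97, adjusted p = 0.294) were no longer called, and Bmp3 lost the call with 5 of the 7 libraries left out in turn.

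Of the pathway list, 11 genes were called higher and 1 lower in the E13.5 chondroblasts, of 43 tested, against 12.5% of 14728 genes. The antagonists and modulators, 12 of the 43 genes tested, held 6 of the 11. Gdf10 rose by a log2 fold change of 6.39 ± 0.59 (adjusted p = 0.000706), from 0.65 to 5.11 CPM to 191.5 and 207.6 CPM. The extracellular modulator Bmper rose by 2.36 ± 0.22 (adjusted p = 0.000706), Fstl1 by 1.51 ± 0.18 (adjusted p = 0.00200), the antagonist gene Chrd by 2.48 ± 0.30 (adjusted p = 0.00226) and Tgfbr3 by 2.09 ± 0.26 (adjusted p = 0.00269, but 0.0667 with 18 libraries in 1 fit). The type II receptor gene Acvr2b fell by 2.04 on the log2 scale (SE 0.27, adjusted p = 0.00329, edgeR), from 29.1 to 46.9 CPM to 9.71 and 8.22 CPM.

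Over the 18 libraries, which share cell populations and dates, the genes whose log2(CPM + 1) was most like that of a member are given as a description. For Gdf5 they were Cryl1 (Pearson r = 0.960) and Gdf10 (0.957), for Bmp4 2610307P16Rik (0.932) and Tpd52l1 (0.930), for Bmp2 Cbx6 (0.924) and 2310022B05Rik (0.917), and for Bmp3 Chrd (0.845) and Tent5a (0.835). For Chrdl1 they were Abi3bp (0.885) and Pamr1 (0.879), for Bambi Raet1d and Fez1 (both 0.890), for Bmp7 Chst10 (0.872) and Gm21297 (0.855), and for Bmp5 Kdm4c (0.860) and Abca3 (0.791). For Nog they were Camk2d (0.851) and Psd (0.840), and for Grem1 Rab28 (0.830) and Adssl1 (0.743), where few libraries set the value.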

How the data were processed

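RNA of 5 pooled tracheas, or of cells sorted from them, was poly(A)-selected and amplified for low input (SMART-Seq v4). The authors deposited expected counts, estimated from the reads and not normalized, for 47248 entries in 22 columns, and 54.1% of the values used were fractional (further than 1e-09 from a whole number). The submitters' processing notes name Partek, limma and mm10, and the aligner is not given in the sources used here. Columns were grouped by name, of which 18 matched a group. The other 4, which no label names, are not used here. The column of epithelium library A names EpCAM staining without a minus sign for GFP and was taken as epithelium. The labels list 3 epithelium, 3 muscle, 3 control and 4 Notum mutant chondroblast samples, against 2, 2, 2 and 3 columns. Where separate litters are not stated, p-values measure only the spread between samples.

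Entries were summed per symbol and rounded. A gene was tested if over 50% of any group's libraries reached 1 CPM, by edgeR 4.0.16 (R 4.3.3, TMM, quasi-likelihood, 2-sided, Benjamini-Hochberg), and again with DESeq2 1.42.0, other scalings and filters, shared fits, a date term and each library left out. The SE is the log2 fold change over the square root of F. The populations shared 1 fit. The code of the fits was also run on simulated data, and no result here rests on that step. No 2 libraries of a group agreed within sampling noise (chi-square per gene at least 19.9). The number in E11.5 column names was taken to pair samples, since deviations of same-numbered libraries correlated at 0.53, 0.192, 0.138 and 0.102, although mutant C correlated more with control E, of another number (0.219).

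The genes and lists were chosen with earlier results of these data known. Named genes were all 10 members, the targeted genes, pathway genes called (up to 6 by smallest p, otherwise up to 4 past the study's rule without overlap), and the 2 most similar genes per member.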

Additional observations from a re-analysis of the deposited data

Results flagged for a closer look

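A library stood apart from the others of its group for 2 members among the E11.5 Wnt5a mutants. Bmp2 was at 6.17 CPM in library A, against 1.88 to 2.34 in the other 3. Chrdl1 was at 20.7 CPM in library A, against 29.4 to 30.5 in the other 3. Both gaps exceeded Dixon's 95% critical value, which chance exceeds in about 1 of 20 groups. The rule was applied to each of the 10 members in both E11.5 groups, so gaps of this kind can arise by chance among them. Library A of the mutants, like library A of the controls, also stood apart in dissociation-induced genes.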

How the results depend on the processing

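Under none of the other settings was a member called in the E11.5 Wnt5a comparison, and the counts past the study's rule there were 2 under DESeq2 (Chrdl1 and Gdf5), without a filter and with 18 libraries in 1 fit, 3 with the replicate block, and 0 to 2 with each library left out. In the Notum comparison, the members called numbered 3 under DESeq2 and 0 with any mutant library left out. A term for the date, or leaving out a control library, leaves 1 control as the reference. Without control library A, Nog entered the fit only through control library B, at 4.48 CPM. In the Notum comparison the count past the study's rule was 3 with 18 or with 9 sorted libraries in 1 fit. It was 5 without a filter and 4 with any mutant library left out. Between epithelium and mesenchyme the count was 4 under DESeq2 and without a filter, 5 with 18 libraries in 1 fit, 1 on library size only and with a term for the date, and 1 with each library left out. Between epithelium and chondroblasts it was 3 under DESeq2 and with 9 sorted libraries in 1 fit (with or without a term for the date), 5 without a filter and with 18 libraries in 1 fit, and 0 to 1 with a library left out. Between epithelium and muscle it was 5 under DESeq2, 2 with a term for the date, 1 on library size only and 0 to 2 with a library left out. Between chondroblasts and muscle it was 0 on library size only and 0 to 1 with a library left out. Between E13.5 chondroblasts and E11.5 trachea it was 3 with DESeq2 size factors, on library size only and with 18 libraries in 1 fit, 5 without a filter, and 3 to 4 with a library left out. Of the values of single genes under the other settings, without the leave-one-out fits, 671 kept direction and call, 44 gained a call, 17 lost it and 13 reversed. The replicate block changed no other call. Calls over all genes moved as well. Between epithelium and mesenchyme 704 of 13687 genes were called in the main fit, 2035 under DESeq2 and 691 on library size only. With a term for the date they were 555, without a filter 1928 of 20136, and with 18 libraries 3898 of 15331. Between epithelium and chondroblasts 375 were called in the main fit, 1554 under DESeq2, 1463 without a filter and 2961 with 18 libraries. Between epithelium and muscle 490 were called in the main fit, 1827 under DESeq2, 398 with a term for the date and 489 on library size only. Between chondroblasts and E11.5 trachea 1835 were called, 1497 of 23783 without a filter and 1573 with 18 libraries. At E11.5, 546 genes passed the rule of the study, 717 under DESeq2, 1451 of 24065 without a filter and 299 with 18 libraries. In the Notum comparison 1188 passed it, 1489 of 21179 without a filter and 930 with 18 libraries. The cause of these differences was not tested.

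Direction reversed for members that were not called. In the Notum comparison a term for the date, here and above, leaves control library B alone as the reference, since only control library A carried the earlier date. It is thus the same contrast as leaving out control library A. That term gave log2 fold changes of -0.20 for Bmp2, 0.39 for Bmp5, -0.043 for Bmp7 and -0.15 for Gdf5. The 9 sorted libraries with a term for the date, chosen after seeing the data, gave -0.28 for Bmp2, -0.36 for Bmp7 and -0.056 for Gdf5. Bmp4 between E13.5 chondroblasts and E11.5 trachea moved to -0.0204 under DESeq2, -0.0208 with its size factors, -0.083 on library size only, -0.0044 without a filter, -0.0094 with at least 10 counts in every library of a group and -0.0089 with 18 libraries in 1 fit. With a library left out, ranges that crossed 0 were, at E11.5, -0.63 to 0.078 for Bmp2 and -0.015 to 0.44 for Bmp4. In the Notum comparison they were -0.19 to 0.58 for Bmp2, -1.32 to 0.40 for Bmp5, -0.037 to 1.13 for Bmp7 and -0.14 to 0.19 for Gdf5. Against E11.5 trachea they were -0.29 to 0.27 for Bmp4 and -0.43 to 1.32 for Bmp5. Between epithelium and mesenchyme they were -0.027 to 0.83 for Bmp5, -0.32 to 1.502 for Bmp7 and -0.49 to 0.14 for Chrdl1, between epithelium and chondroblasts -0.24 to 1.47 for Bmp5 and -0.70 to 0.88 for Bmp7, between epithelium and muscle -0.22 to 0.76 for Bmp5, and between chondroblasts and muscle -0.18 to 1.28 for Bmp4, -1.28 to 0.43 for Bmp5 and -0.026 to 2.67 for Bmp7. Nog and Grem1 were under the filter of the main fit in both mutant comparisons.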
